A study of Mus musculus with 6 samples.

Results

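The genes described here encode 6 C-type lectin-like receptors known from natural killer (NK) cells: Klrd1 (CD94), Klrc1 (NKG2A), Klrk1 (NKG2D), Klrb1a and Klrb1b (NKR-P1A and NKR-P1B) and Klrg1. Every probe set to which the platform annotation gives 1 of these symbols alone was taken, and 7 of the 12488 probe sets on the array met this rule, 2 of them for Klrk1. They stand for 6 of the 8251 genes that have a probe set with 1 symbol. A further 1 probe set carries the symbols of both Klrb1b and Klrb1c and is given apart. RNA came from 3 subsets of intraepithelial lymphocytes (IEL), T cells that sit between the epithelial cells of the gut, here of the mouse small intestine: TCRgd CD8aa, TCRab CD8aa and TCRab CD8ab, named by the chains of the T cell receptor and of the CD8 dimer. All were sorted, untreated and without culture, from C57BL/6 mice under 8 weeks old. Each of 2 experiments pooled IEL of 20 mice, sorted the 3 subsets from that pool and used 1 array per subset, so each subset has 2 arrays, each of a pool and not of a mouse. The titles of the TCRgd CD8aa samples write TCRgb, and their source descriptions, which write TCRgd, were followed.

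These receptors are type II membrane proteins with a lectin-like outer domain, and in the mouse their genes lie on chromosome 6, most of them in the NK gene complex. CD94 has almost no tail of its own and reaches the surface as a pair with an NKG2 chain, where CD94 with NKG2A binds the non-classical class I molecule Qa-1 and inhibits the cell. NKG2D binds stress-induced class I-like ligands and signals through the adaptors DAP10 and, in mice, DAP12. NKR-P1A signals through the Fc receptor gamma chain and NKR-P1B inhibits on binding a lectin-like ligand of the Clec2 family. KLRG1 binds cadherins, inhibits, and marks effector CD8 T cells. Unconventional IEL are known for carrying NK-type receptors beside their T cell receptor.

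In the RefSeq gene order, Klrb1a and Klrb1b stand near each other, and Klrd1 and Klrk1 are direct neighbours. Between Klrb1a and Klrc1 lie 24 other protein-coding genes, of which 3 have a probe set with 1 symbol here. A promoter entry was found for 4 of the 6 genes. Those of Klrb1a and Klrb1b are printed because the values of these related genes are set side by side below. The lines give the 250 bases before the most upstream listed start of each gene, 5′ to 3′, on the minus strand of GRCm38.p6 in RefSeq, at chr6:128622935-128623184 and chr6:128826316-128826565. Capitals mark the longest run of letters that both share.
Klrb1a: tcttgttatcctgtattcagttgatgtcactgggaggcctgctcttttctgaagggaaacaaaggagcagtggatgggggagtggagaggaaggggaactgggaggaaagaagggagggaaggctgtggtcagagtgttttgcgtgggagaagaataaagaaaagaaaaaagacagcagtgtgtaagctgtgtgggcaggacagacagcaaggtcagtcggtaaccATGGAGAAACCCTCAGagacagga
Klrb1b: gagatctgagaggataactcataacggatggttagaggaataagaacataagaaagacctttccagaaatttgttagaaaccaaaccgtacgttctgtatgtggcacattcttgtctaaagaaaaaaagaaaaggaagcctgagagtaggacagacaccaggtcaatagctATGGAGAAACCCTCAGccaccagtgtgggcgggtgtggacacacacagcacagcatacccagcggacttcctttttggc
The shared run is 16 bases long and begins 24 bases before the start of Klrb1a and 79 bases before that of Klrb1b. Over 32851 promoter windows of this length, 3 held the run on either strand, and all of them belong to Klrb1a or Klrb1b, for which 2 starts are listed. The core letters bound by Runx factors, TGTGGT, were found on either strand once in the windows of Klrb1a, Klrc1 and Klrk1 and 0 times in that of Klrb1b, against 14% of all windows with a match. The Ets core AGGAAG was found 1 time in Klrb1a, 2 times in Klrb1b and 0 times in Klrc1 and Klrk1, against 29.5% of all windows, and the T-box half-site TCACAC 0 times in all 4, against 12.3%. Matches of different motifs shared 0 bases. These letters describe the windows and were not tested for binding.

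The values are signals of the MAS5 program in linear units, 1 per probe set and array, with low values set to a floor of 15.3 (log2 3.94) before log2 was taken. Median signal was 83.4 to 113 per array. The 2 experiments stood apart: the beta-actin controls at the 3′ and 5′ ends of the transcript, whose ratio measures RNA and label quality, gave 3′/5′ ratios between 1.41 and 1.76 on the arrays of experiment 1 and between 40.4 and 52.2 on those of experiment 2. The receptors' differences from TCRab CD8ab are therefore also given by experiment. Cd8b1, the CD8 beta chain, had 28.1 and 763 in TCRgd CD8aa and 29.5 and 182 in TCRab CD8aa, against 17647 and 27592 in TCRab CD8ab (experiments 1 and 2), which follows the labels. The 7 of 10 enterocyte markers on the array summed to 814 and 24643 in TCRgd CD8aa, to 1393 and 627 in TCRab CD8aa and to 1364 and 764 in TCRab CD8ab, so the TCRgd CD8aa array of experiment 2 stood apart. Of 6 NK cell markers, 5 have a probe set. Ncr1, the NK receptor NKp46, was between 3.6 and 19.9 on all arrays, that is at or near the floor, while Gzma, a granzyme that IEL also express, gave most of the list's sum of 14375 to 24602 in TCRgd CD8aa, 15256 to 25688 in TCRab CD8aa and 17340 to 19987 in TCRab CD8ab. Eomes, a T-box factor of NK and memory T cells, had 15.7 and 64.9 in TCRgd CD8aa and 35.7 and 1.7 in TCRab CD8aa, against 141 and 134 in TCRab CD8ab, and Ncam1 and Itga2 lay between 33.6 and 129. The 5 of 6 B and plasma cell markers with a probe set summed to 4337 and 5782 in TCRgd CD8aa and 4608 and 1953 in TCRab CD8aa, against 2568 and 1495 in TCRab CD8ab. This sum was lowest in TCRab CD8ab in both experiments, as were Klrb1a, Klrd1, Tyrobp, Fcer1g, Txk and Zbtb16 below. In it Ighm, an immunoglobulin chain, had 3401 and 648 in TCRgd CD8aa and 3905 and 1105 in TCRab CD8aa, against 1265 and 262 in TCRab CD8ab. Other Ighm probe sets differed, with TCRgd CD8aa minus TCRab CD8ab at −1.21 and 1.75 and at −0.66 and 0.39 by experiment (log2). Jchain had 84.3 and 4023 in TCRgd CD8aa, 61.8 and 211 in TCRab CD8aa and 678 and 102 in TCRab CD8ab. Its highest value in experiment 1 was thus that of TCRab CD8ab. Ms4a1 and Cd79a were highest on the TCRab CD8ab array of experiment 2. The part of such cells in the results was not tested. In these sorted pools, fewer cells with a transcript and less of it per cell cannot be told apart.

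Klrb1a RNA was far higher in both CD8aa subsets than in TCRab CD8ab. Its probe set had signals of 2151 and 1892 in TCRgd CD8aa, 2151 and 5062 in TCRab CD8aa and 190 and 144 in TCRab CD8ab (experiments 1 and 2). Each CD8aa array lay above both TCRab CD8ab arrays, and the highest value was that of TCRab CD8aa in experiment 2. On the log2 scale the means were 10.98 ± 0.13 in TCRgd CD8aa, 11.69 ± 0.87 in TCRab CD8aa and 7.37 ± 0.28 in TCRab CD8ab (SD, n = 2 each).

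TCRgd CD8aa exceeded TCRab CD8ab in Klrb1a by 3.61 ± 0.41 on the log2 scale (SE of the limma fit with the experiment as a block, n = 2), a fold of 12.2, with 3.50 in experiment 1 and 3.71 in experiment 2. TCRab CD8aa exceeded it by 4.32 ± 0.41, a fold of 19.9, with 3.50 and 5.13. In the planned limma fit, which has no term for the experiment, neither passed over all 8299 tested probe sets, with adjusted p of 0.533 and 0.318. With the experiment as a block both passed, with adjusted p of 0.00694 and 0.00198, and among all probe sets they ranked 12th and 9th by p. With 1 array left out, the blocked difference ranged from 3.15 to 4.07 in TCRgd CD8aa and from 3.55 to 5.08 in TCRab CD8aa, the lower end of the second without TCRab CD8aa replicate 2 and the upper without replicate 1. Over the 12 limma fits with the block, the adjusted p ran from 1.81e-09 to 0.548 for TCRgd CD8aa and from 5.50e-22 to 0.522 for TCRab CD8aa, the lowest of each with a TCRgd CD8aa array left out, where 1 residual degree of freedom remains. The call held in 10 of them in each comparison and was lost when either the filter on dim probe sets or the intensity trend was dropped. Between the CD8aa subsets, TCRgd CD8aa minus TCRab CD8aa was −0.71 ± 0.41, with 0.00 and −1.42 in the 2 experiments and a blocked limma adjusted p of 1. Their order rests on the TCRab CD8aa array of experiment 2, without which the blocked difference was 0.05.

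Klrb1b, the inhibitory relative, had signals of 94.7 and 261 in TCRgd CD8aa, 137 and 314 in TCRab CD8aa and 86.2 and 188 in TCRab CD8ab. In every subset the array of experiment 2 was the higher one, by 1.46, 1.19 and 1.12 on the log2 scale, and the ranges of the subsets overlapped. Within each experiment the order was TCRab CD8aa, TCRgd CD8aa, TCRab CD8ab from high to low. The differences from TCRab CD8ab were 0.30 ± 0.43 in TCRgd CD8aa (0.14 and 0.47 by experiment) and 0.71 ± 0.43 in TCRab CD8aa (0.67 and 0.74), and TCRgd CD8aa minus TCRab CD8aa was −0.40 ± 0.43, with −0.54 and −0.27 (log2, blocked limma SE, n = 2). None passed, with blocked limma adjusted p of 0.883, 0.624 and 1. The 95% intervals of that fit, −0.66 to 1.27 and −0.26 to 1.67 against TCRab CD8ab, lie below those of Klrb1a, which run from 2.67 to 4.54 and from 3.38 to 5.25. The difference between the genes was not tested itself.

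The probe set that carries both Klrb1b and Klrb1c had 227 and 349 in TCRgd CD8aa, 326 and 436 in TCRab CD8aa and 245 and 330 in TCRab CD8ab. Klrb1c encodes NK1.1, the NK cell marker of C57BL/6 mice. Its log2 differences from TCRab CD8ab were −0.02 ± 0.36 in TCRgd CD8aa (−0.11 and 0.08 by experiment) and 0.40 ± 0.36 in TCRab CD8aa (0.41 and 0.40), with blocked limma adjusted p of 0.998 and 0.743. The 12-fold to 20-fold size seen for Klrb1a was not seen in the signal that these related genes share.

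**Figure D1:**
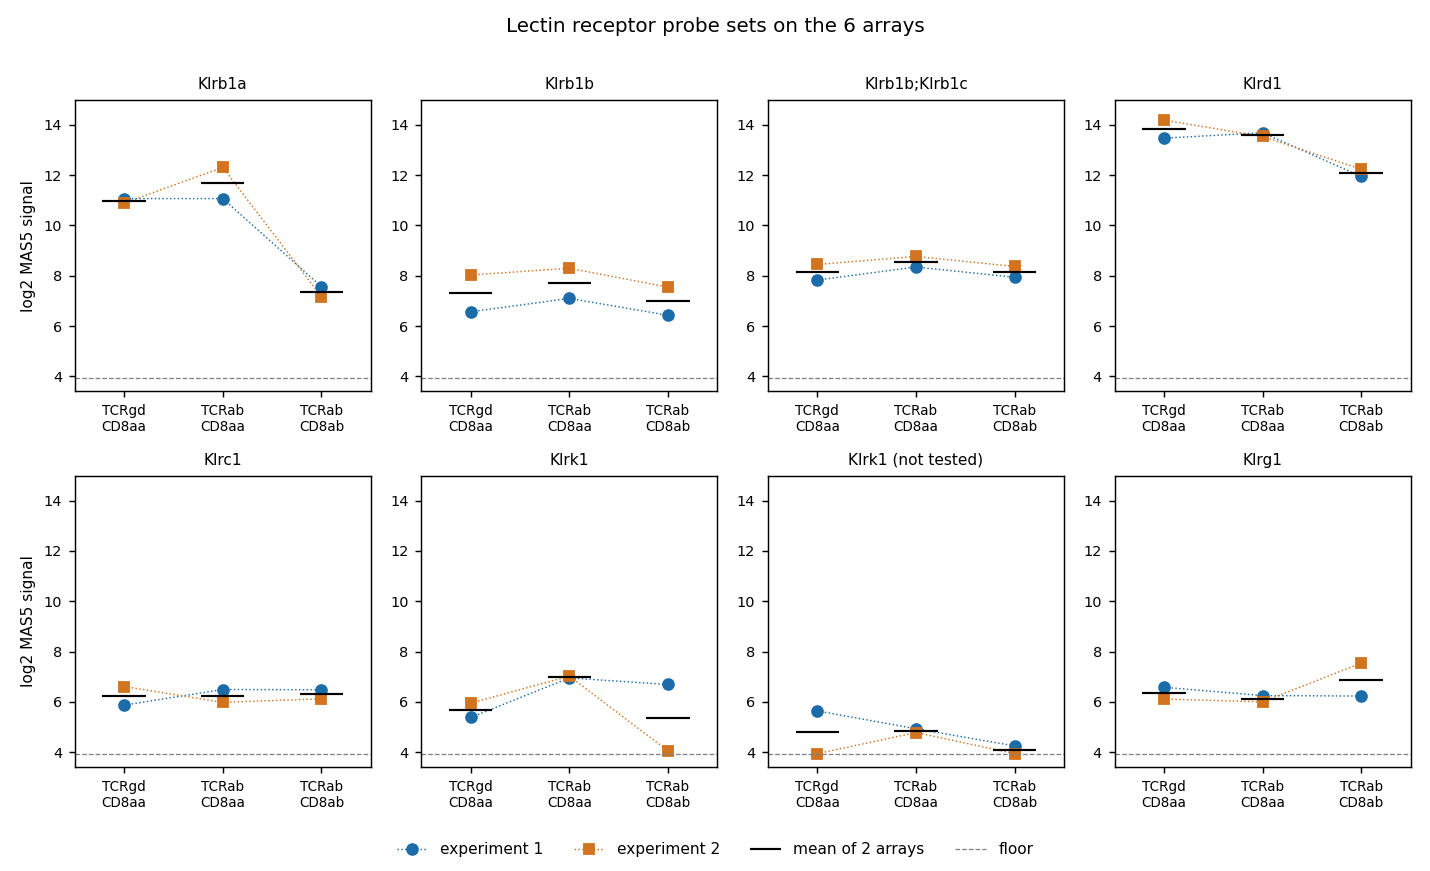
Log2 MAS5 signal of the 7 probe sets and of the probe set with 2 symbols on each array, by subset. Circles are experiment 1, squares experiment 2, bars the mean of 2 arrays and the dashed line the floor at 3.94; Klrb1a and Klrd1 lie above TCRab CD8ab on all 4 CD8aa arrays, and Klrb1b is higher in experiment 2 in each subset.

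Klrd1, the common partner chain CD94, had high signals in every subset and the highest on the CD8aa arrays. Its signals were 11380 and 18748 in TCRgd CD8aa and 13171 and 11907 in TCRab CD8aa, against 3964 and 4831 in TCRab CD8ab. All 4 CD8aa arrays lay above both TCRab CD8ab arrays, while the CD8aa subsets overlapped each other. Mean log2 signals were 13.83 ± 0.51, 13.61 ± 0.10 and 12.10 ± 0.20 in that order of subsets (SD, n = 2 each).

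TCRgd CD8aa minus TCRab CD8ab was 1.74 ± 0.31 for Klrd1, a fold of 3.34, with 1.52 and 1.96 in the 2 experiments. TCRab CD8aa minus TCRab CD8ab was 1.52 ± 0.31, a fold of 2.86, with 1.73 and 1.30 (log2, blocked limma SE, n = 2). Neither passed, with limma adjusted p of 0.0574 and 0.0765 with the block and of 1 in both without it, the unadjusted p without it being 0.00826 and 0.0152. The 95% intervals with the block were 1.03 to 2.44 and 0.81 to 2.22. With the block, 5 of 12 fits called the first difference and 4 of 12 the second. The adjusted p was highest without the filter, at 0.585 and 0.59. Of the fits on all arrays only quantile normalization called them, with blocked limma adjusted p of 0.0154 and 0.0126. The other calls came from fits with fewer arrays, which leave fewer residual degrees of freedom. Among these, leaving out TCRab CD8aa replicate 1, TCRab CD8aa replicate 2 or TCRgd CD8aa replicate 1 brought the call for TCRgd CD8aa. Leaving out TCRgd CD8aa replicate 1 or 2 brought that for TCRab CD8aa. The highest Klrd1 signal was on the TCRgd CD8aa array with raised enterocyte markers. Without that array, TCRgd CD8aa minus TCRab CD8ab was 1.41 with the block for Klrd1 and 3.91 for Klrb1a, and the part of those cells in the values was not tested. TCRgd CD8aa and TCRab CD8aa differed by 0.22 ± 0.31, with −0.21 and 0.65 by experiment and a 95% interval of −0.48 to 0.93.

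Klrc1, the inhibitory NKG2A chain that pairs with CD94, showed no such pattern. Its signals were 58.6 and 97.4 in TCRgd CD8aa, 90 and 63.2 in TCRab CD8aa and 89 and 69.4 in TCRab CD8ab, close to the signal of 56.4 that at least 2 arrays had to exceed for a probe set to be tested. The subsets overlapped in all 3 comparisons, and no order of the levels can be given beyond their spread. Against TCRab CD8ab the log2 differences were −0.06 ± 0.60 in both CD8aa subsets, with −0.60 and 0.49 by experiment in TCRgd CD8aa and 0.02 and −0.13 in TCRab CD8aa. Blocked limma adjusted p was 0.992 and 0.982, and the 95% interval was −1.41 to 1.29 in each, which overlaps those of Klrd1. The difference between these genes was not tested. These signs turn under quantile normalization, to 0.04 and 0.18. Probe sets of 1 symbol for Klrc2 and Klrc3, the other NKG2 chains of the mouse, were not among those analysed here.

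Klrk1, the activating receptor NKG2D, was dim, and its 2 probe sets gave different orders of the subsets in experiment 1. The tested one had 41.6 and 62 in TCRgd CD8aa, 124 and 129 in TCRab CD8aa and 103 and 16.6 in TCRab CD8ab. TCRab CD8aa was highest on both arrays, and TCRab CD8ab changed most between experiments, its second array being 2.64 lower on the log2 scale than its first. TCRab CD8aa minus TCRab CD8ab was 1.61 ± 0.83, made up of 0.26 and 2.96, and TCRgd CD8aa minus TCRab CD8ab was 0.29 ± 0.83, made up of −1.31 and 1.90. TCRgd CD8aa minus TCRab CD8aa was −1.32 ± 0.83, with −1.57 and −1.06, so the TCRgd CD8aa arrays were below the TCRab CD8aa arrays in both experiments. None passed, with blocked limma adjusted p of 0.569, 0.948 and 1. With the floor at the 30th percentile and no block, TCRgd CD8aa minus TCRab CD8ab turned to −0.16. The second TCRab CD8ab signal, 16.6, lay close to the floor of 15.3. With 32 added to each signal in place of the floor, the blocked differences from TCRab CD8ab were 0.97 in TCRab CD8aa and 0.04 in TCRgd CD8aa. Without the second TCRab CD8ab array, the blocked difference of TCRab CD8aa was 0.13 and that of TCRgd CD8aa −1.18.

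The other Klrk1 probe set had 49.8 and 15 in TCRgd CD8aa, 30.4 and 27.4 in TCRab CD8aa and 19 and 9.4 in TCRab CD8ab. It was the 1 of 7 that failed the filter, and it was not tested. In experiment 2 its TCRgd CD8aa and TCRab CD8ab arrays both lay under the floor and have no order.

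Klrg1, the cadherin receptor of effector T cells, was the 1 gene whose highest array was a TCRab CD8ab one. Its signals were 95.9 and 68.9 in TCRgd CD8aa, 76 and 63.9 in TCRab CD8aa and 75 and 186 in TCRab CD8ab. The value of 186 came from experiment 2, and the other 5 arrays lay between 63.9 and 95.9. Relative to TCRab CD8ab, the log2 differences were −0.54 ± 0.62 in TCRgd CD8aa (0.35 and −1.43 by experiment) and −0.76 ± 0.62 in TCRab CD8aa (0.02 and −1.54), with blocked limma adjusted p of 0.852 and 0.717. Without that TCRab CD8ab array they became 0.30 and 0.08 with the block. The CD8aa subsets differed by 0.22 ± 0.62, TCRgd CD8aa minus TCRab CD8aa, with 0.34 and 0.11 by experiment and an adjusted p of 1.

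**Figure D2:**
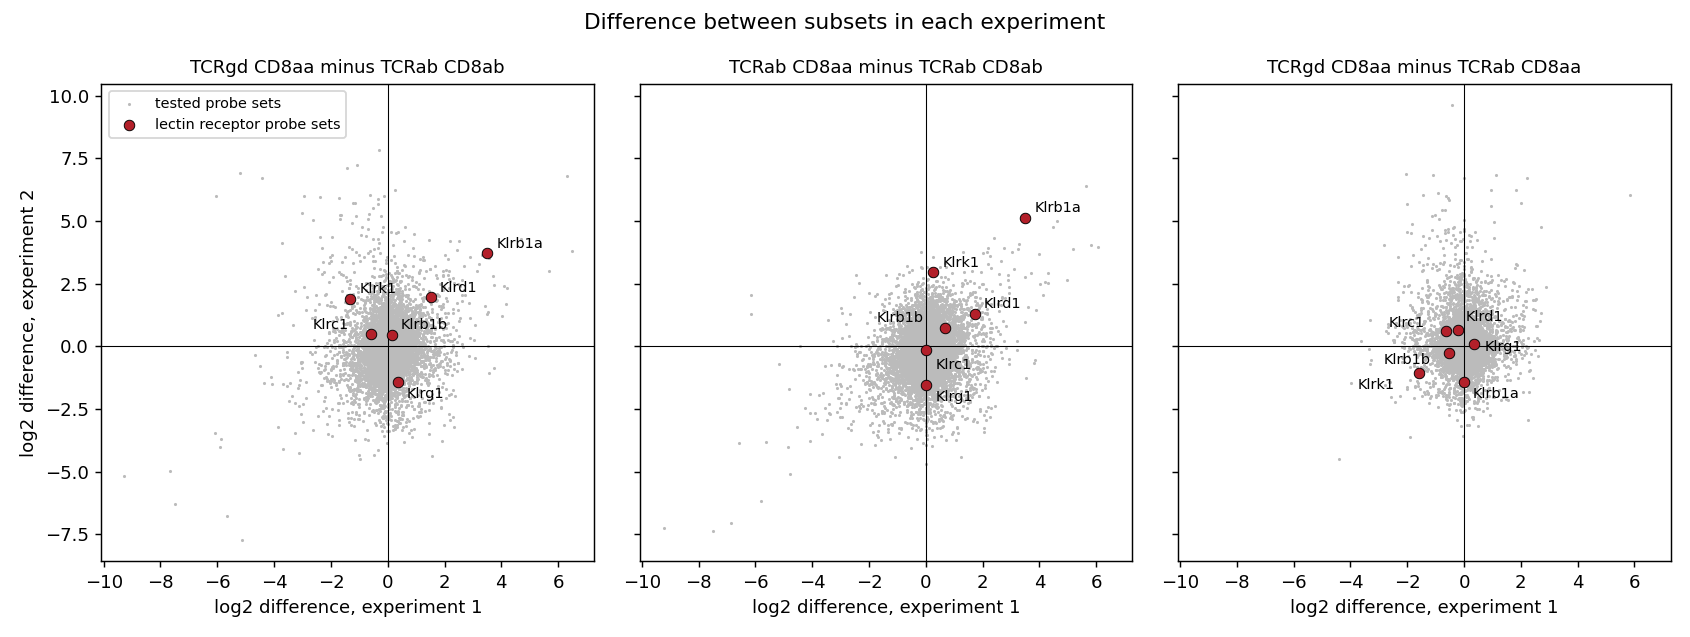
Log2 difference between subsets in experiment 1 (horizontal) against experiment 2 (vertical) for all 8299 tested probe sets (grey) and the 6 tested lectin receptor probe sets (red). Klrb1a lies at 3.50 and 3.71 in TCRgd CD8aa minus TCRab CD8ab and at 3.50 and 5.13 in TCRab CD8aa minus TCRab CD8ab, while Klrc1 lies between −0.60 and 0.49 on both axes of these panels.

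Taking the 6 tested probe sets side by side, 1 of 6, Klrb1a, was called higher in TCRgd CD8aa than in TCRab CD8ab by limma with the block, where 0.337% of all tested probe sets were called higher and 0.554% in either direction. In TCRab CD8aa against TCRab CD8ab it was again 1 of 6, where 0.518% were called higher and 0.819% in either direction. Between TCRgd CD8aa and TCRab CD8aa 0 of 6 were called, where 0.0241% were called over all. Limma without the block called 0 probe sets in each comparison, with 168, 187 and 34 at an unadjusted p under 0.05 in the order just given.

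Groups that did not overlap were seen for 2 of 6 as higher in TCRgd CD8aa than TCRab CD8ab, where 9.39% of all tested probe sets did so, and for 3 of 6 as higher in TCRab CD8aa, where 10% did so. The first were Klrb1a and Klrd1, and in TCRab CD8aa Klrk1 joined them. TCRgd CD8aa lay wholly below TCRab CD8aa for Klrk1 and Klrb1a, 2 of 6 against 6.64%, in Klrb1a by less than 1 signal unit between the nearest arrays. The median log2 difference of the 6 was 0.30 for TCRgd CD8aa and 1.11 for TCRab CD8aa against TCRab CD8ab, where the medians over all tested probe sets were −0.06 and −0.08. The genes were chosen as a receptor family with results of these arrays known, and the comparisons with TCRab CD8ab share its 2 arrays, so these counts describe the family only.

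**Figure D3:**
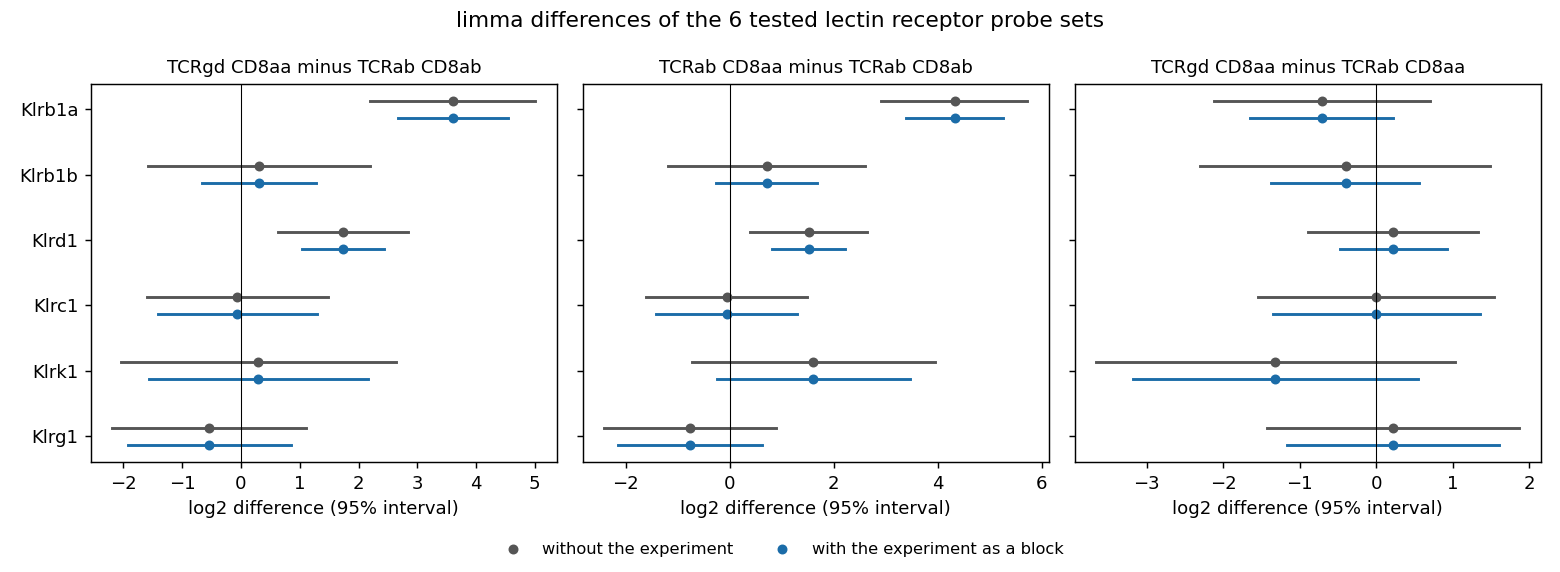
Log2 difference (point) and 95% interval (bar) of the 6 tested probe sets from limma without the experiment (grey) and with it as a block (blue). The Klrb1a and Klrd1 intervals lie above 0 against TCRab CD8ab in both fits before adjustment over all probe sets, and the intervals of the other 4 include 0 in every comparison.

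Of the signalling partners, Tyrobp and Fcer1g, adaptors that pair with activating NK receptors, were higher in both CD8aa subsets than in TCRab CD8ab. Of 4 adaptor genes listed, 3 have a probe set with 1 symbol. In each comparison with TCRab CD8ab, limma called 2 of these 3 higher and 0 lower with the block and 0 without it. With the block, 0.337% of all tested probe sets were called higher in TCRgd CD8aa and 0.518% in TCRab CD8aa. Tyrobp, the adaptor DAP12, had 10955 and 3640 in TCRgd CD8aa and 12063 and 7524 in TCRab CD8aa, against 216 and 459 in TCRab CD8ab. That is 4.33 ± 0.53 (5.67 and 2.99 by experiment) and 4.92 ± 0.53 (5.81 and 4.03) on the log2 scale, with limma adjusted p of 0.00856 and 0.00345 with the block and 0.533 and 0.322 without it. Fcer1g, the Fc receptor gamma chain, had 1365 and 520 in TCRgd CD8aa and 1030 and 594 in TCRab CD8aa, against 12.8 and 37.6 in TCRab CD8ab, where the first value lay at the floor. With the floor its differences were 5.13 ± 0.60 (6.48 and 3.79 by experiment) and 5.03 ± 0.60 (6.07 and 3.98), with limma adjusted p of 0.00719 and 0.00609 with the block and 0.533 and 0.322 without it. The floor sets the size of these, and with 32 added to each signal in place of the floor they were 3.97 and 3.87. With 1 array left out, the blocked differences ranged from 3.21 to 5.44 and 3.81 to 6.03 for Tyrobp and from 3.94 to 6.33 and 3.83 to 6.22 for Fcer1g, each lowest without TCRab CD8ab replicate 1 and highest without TCRab CD8ab replicate 2. The calls of both adaptors were lost when the filter or the intensity trend was dropped, with adjusted p of 0.107 to 0.585. Without the TCRgd CD8aa array of experiment 2, the blocked TCRgd CD8aa differences were 5.22 for Tyrobp and 5.96 for Fcer1g. The 6 myeloid markers summed to 579 and 893 in TCRgd CD8aa, 529 and 348 in TCRab CD8aa and 744 and 782 in TCRab CD8ab, and the 4 mast cell markers to 95 and 672, 164 and 41, and 100 and 119 in that order, with up to 4 mast cell markers at the floor on an array. The part of these cells in the adaptor signals was not tested. A second Fcer1g probe set had 11.3 and 54.9 in TCRgd CD8aa and 3.1 and 22.3 in TCRab CD8aa, against 42.5 and 42.8 in TCRab CD8ab. It did not follow the order of the first. It did not pass the filter, as all its signals lay under 56.4, and 2 of its arrays lay at the floor.

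The third adaptor, Cd247 (CD3 zeta), had lower means in both CD8aa subsets, and the differences did not pass with all arrays. It had 1140 and 208 in TCRgd CD8aa and 366 and 135 in TCRab CD8aa, against 1345 and 552 in TCRab CD8ab. Its log2 differences from TCRab CD8ab were −0.82 ± 0.39 (−0.24 and −1.41 by experiment) and −1.96 ± 0.39 (−1.88 and −2.03), with blocked limma adjusted p of 0.648 and 0.0675. The second was called lower in 4 of 12 fits with the block, and its adjusted p was 0.59 without the filter. These 4 were the fit of only the arrays compared and those without TCRab CD8ab replicate 1, TCRgd CD8aa replicate 1 or TCRgd CD8aa replicate 2. All 4 use fewer arrays and leave fewer residual degrees of freedom, so they add little to the fit of all arrays. A second Cd247 probe set, with 8.4 and 11.3 in TCRgd CD8aa and 15 and 41.4 in TCRab CD8aa, against 86.4 and 27.5 in TCRab CD8ab, did not pass the filter. Hcst, the adaptor DAP10, was not analysed here. Tyrobp and Fcer1g, like Klrb1a, were not called between TCRgd CD8aa and TCRab CD8aa, with adjusted p of 1 and differences of −0.59 ± 0.53 (−0.14 and −1.05 by experiment) and 0.11 ± 0.60 (0.41 and −0.19).

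Over all lists of partners, ligands, signalling genes and regulators, 32 of 73 genes were tested. With the block 3 were called higher and 0 lower in TCRgd CD8aa against TCRab CD8ab, 4 higher and 0 lower in TCRab CD8aa, and 0 between the CD8aa subsets. Of all tested probe sets, 0.337% and 0.518% were called higher in the first 2 comparisons, and 0.0241% in either direction in the third. The median log2 differences of the listed genes were 0.03, 0.10 and −0.11, against −0.06, −0.08 and 0.00 over all tested probe sets. Among 13 activating signalling genes tested, only Txk, a kinase of the Tec family in T cells, was called. Txk had 4687 and 6030 in TCRgd CD8aa and 4327 and 8283 in TCRab CD8aa, against 1118 and 2651 in TCRab CD8ab. Its differences were 1.63 ± 0.31, with 2.07 and 1.19 by experiment (blocked limma adjusted p = 0.0793), and 1.80 ± 0.31, with 1.95 and 1.64 (adjusted p = 0.0353), against an adjusted p of 1 for both without the block. A second Txk probe set gave folds of 2.3 and 2.57, which did not pass in blocked limma (0.434 and 0.282). The difference of TCRgd CD8aa in the first probe set passed without TCRgd CD8aa replicate 2, where fewer residual degrees of freedom remain. That of TCRab CD8aa was lost without TCRab CD8aa replicate 1, TCRab CD8aa replicate 2 or TCRab CD8ab replicate 1, and without the filter or the trend. None of the 6 inhibitory signalling genes tested, which include the phosphatases Ptpn6 and Inpp5d, was called in any comparison with or without the block.

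Of 8 tested regulators, Zbtb16, the factor PLZF of innate-like lymphocytes, was called with the block in both CD8aa subsets against TCRab CD8ab. There, 0.337% (TCRgd CD8aa) and 0.518% (TCRab CD8aa) of all tested probe sets were called higher. Zbtb16 had 134 and 123 in TCRgd CD8aa and 371 and 489 in TCRab CD8aa, while both TCRab CD8ab arrays, at 3 and 4, lay under the floor. With the floor it was 8.38-fold higher in TCRgd CD8aa and 27.9-fold higher in TCRab CD8aa. The floor sets these folds and leaves no spread between the TCRab CD8ab arrays. With 32 added to each signal in place of the floor, the blocked log2 differences were 2.18 and 3.69, against 3.07 and 4.80 with it. Limma adjusted p with the floor was 0.04 and 0.00345 with the block and 0.676 and 0.269 without the block. The first call was lost in 6 of 12 fits with the block, among them those without TCRgd CD8aa replicate 1, TCRab CD8aa replicate 2 or TCRab CD8ab replicate 2 (0.0626, 0.069 and 0.0829), and the second without TCRab CD8aa replicate 2 (0.0588) and without the filter. A second Zbtb16 probe set, with 21.1 and 10.5 in TCRgd CD8aa, 25.2 and 6 in TCRab CD8aa and 22.5 and 39.6 in TCRab CD8ab, did not pass the filter. Its mean log2 differences from TCRab CD8ab, −0.73 and −0.60, have the other sign. All its signals lay under the filter's signal of 56.4, and 2 of its arrays lay at the floor, so these differences come from dim values.

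Of 21 ligand and partner genes listed, 4 have a probe set with 1 symbol and 2 passed the filter, the class I light chain B2m and Cdh1. Cdh1, E-cadherin, a ligand of KLRG1, had 187 and 209 in TCRgd CD8aa and 193 and 268 in TCRab CD8aa, against 168 and 267 in TCRab CD8ab. Its differences were −0.10 ± 0.40 (0.15 and −0.35 by experiment) and 0.10 ± 0.40 (0.20 and 0.00), with blocked limma adjusted p of 0.971 and 0.947, and they turn sign when 1 array is left out. H2-T23, the ligands of NKG2D and the Clec2 ligands of NKR-P1 receptors have no such probe set among those analysed. Of 15 other lectins of the NK gene complex listed, 1 has a probe set, Olr1, and it did not pass the filter.

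**Figure D4:**
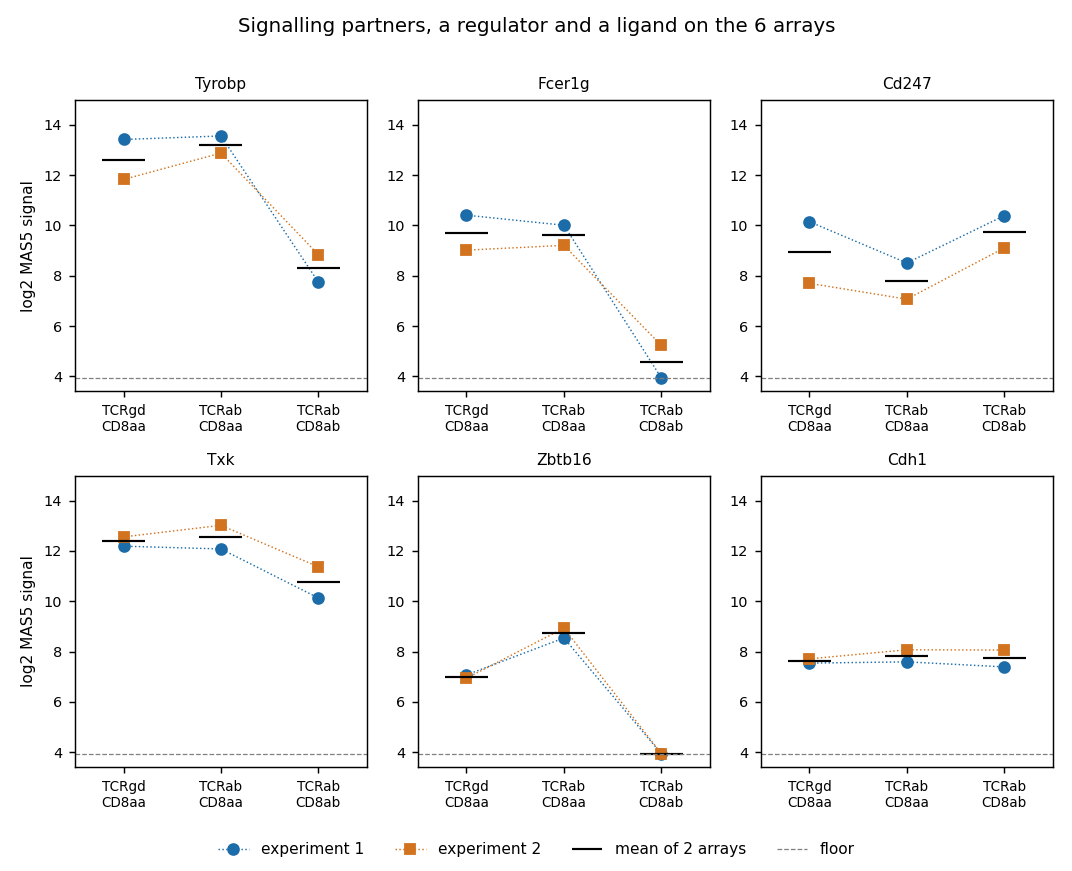
Log2 MAS5 signal of 3 adaptors (Tyrobp, Fcer1g, Cd247), the kinase Txk, the factor Zbtb16 and the ligand Cdh1 on each array, by subset. Circles are experiment 1, squares experiment 2, bars the mean of 2 arrays and the dashed line the floor at 3.94; Tyrobp, Fcer1g, Txk and Zbtb16 are lowest in TCRab CD8ab in both experiments, and Cd247 is lowest in TCRab CD8aa.

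Likeness of pattern was measured as the root mean square difference of log2 values over the 6 arrays, after centring each probe set on the mean of its experiment. For Klrb1a the 3 nearest of 7398 candidate probe sets were those of Pkp2 (0.35), a desmosomal plakophilin, Itih5 (0.46), a secreted matrix protein, and Zbtb16 (0.49), against a median of 1.99 over all tested probe sets. For Klrd1 they were Hspa2 (0.10), a heat shock protein, Cd300c2 (0.16), a leukocyte receptor, and Pip5k1b (0.19), a lipid kinase, against a median of 0.89. For Klrk1 they were H2-DMb2 (0.20), a class II chaperone chain, Olfr15 (0.27), an olfactory receptor, and Ndufa3 (0.31), a subunit of respiratory complex I, against 1.10. The probe sets of Klrb1b (nearest Rell1, Usp34 and Spop, 0.04 to 0.05) and Klrc1 (Ighm, Zfp36l1 and Lmnb1, 0.07 to 0.09) vary little within an experiment, and many genes lie close to them. Their root mean squares about the experiment mean were 0.30 and 0.28. This Ighm probe set is not the brighter one given above among the B cell markers. Klrg1 varied more, at 0.51, with its high TCRab CD8ab array in experiment 2, and its nearest were Sugp2, Rnh1 and Meis3 (0.05 to 0.06). Among the lectin receptors themselves, the closest pair was Klrb1b and Klrc1 (0.38) and the most distant Klrb1a and Klrg1 (2.30), while Klrd1 and its partner chain Klrc1 were 0.81 apart. These distances depend on how much each probe set varies, so they do not by themselves show a shared or a differing pattern. The 0.38 exceeds the root mean squares of Klrb1b and Klrc1 themselves, and 0.81 is near that of Klrd1, 0.79.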

How the data were processed

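The submitters' processing notes name MAS5, with no version. The authors deposited signal intensity, 1 value per probe set and array on a linear scale, and their values show a shared trimmed mean. Detection calls and probe positions were not used here. Each array was scaled again to the mean of the arrays' trimmed means (2% left out at each end), by factors of 0.999915 to 1.000056. The 20th percentile over all arrays (15.3) served as a floor before the log2 step. Apart from 66 controls, the 8299 of 12488 probe sets that exceeded the 40th percentile (56.4) on at least 2 arrays were tested. Symbols came from the platform annotation: 10833 probe sets carried 1, 396 several and 1193 were unnamed. A listed gene with several probe sets was counted by its brightest tested one.

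The 3 comparisons were fitted on all 6 arrays with limma 3.58.1 in R 4.3.3 (eBayes with intensity trend), with Benjamini-Hochberg adjustment over all tested probe sets and a threshold of 0.05. The planned design has no term for the experiment. Replicate numbers pair the arrays, since the series states that each experiment sorted all subsets from 1 pool, and deviations from subset means correlated at 0.618, 0.713 and 0.603 across probe sets. The blocked fit is printed beside the planned one where it changes a call, and standard errors are its moderated values, shared by the 3 subsets and not the spread of 2 arrays. P-values without the block are set against the spread between the arrays of the 2 pools. Those with the block are set against how far the subset differences vary between the 2 experiments. Neither measures the spread between mice. With 2 arrays per subset, their number limits the precision. No 2 arrays shared more than 45 equal values. The fits were also run on simulated data, in which the experiment acted alike on all subsets. The 200 probe sets changed there lay well above the floor, so that run does not cover dim ones. It cannot tell which fit suits these arrays.

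Named were all probe sets of the 6 genes, the adaptors, ligands first named per receptor, listed partners called with the block, and the 3 nearest probe sets per receptor. The members and lists were chosen with earlier results of these data known. Alternatives changed normalization, floor, filter, trend, arrays and block, and were computed for the tested receptors and named partners, not for the probe set of 2 symbols or the nearest ones.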

Additional observations from a re-analysis of the deposited data

How the results depend on the processing

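For 36 log2 differences, those of the tested lectin receptors and named partners but not of the probe set with 2 symbols or the nearest ones, 963 alternative values were computed. Each was set against the planned fit without the block. Of these, 809 kept the direction and the side of the threshold, 97 newly passed it, all with the replicate block, and 57 changed sign, 9 of them with all arrays kept. The planned fit called none of them, so no call could be lost in this count. Fits with the block that lose a call of the blocked fit stand among the 809. Without the block, limma called 0 probe sets in every comparison under every setting. With the block it called 46 probe sets in TCRgd CD8aa against TCRab CD8ab, 68 in TCRab CD8aa against TCRab CD8ab and 2 in TCRgd CD8aa against TCRab CD8aa. In the same order, the block gave 50, 72 and 1 with quantile normalization, 45, 64 and 2 with 32 added to each signal, 0, 0 and 0 with no filter, 3, 6 and 1 with no intensity trend, and 50, 169 and 2 with only the arrays of the subsets compared. Leaving out 1 array in turn with the block gave 30 to 193, 22 to 182 and 1 to 114 calls. The highest came without TCRgd CD8aa replicate 1 in each comparison, and the lowest without TCRab CD8ab replicate 2 in the first and without TCRab CD8aa replicate 2 in the others. Of the 6 lectin receptor probe sets, the block called 1, 1 and 0, as it did with 32 added. It called 2, 2 and 0 with quantile normalization and with only the subsets compared, 0 with no filter or no trend, and 1 to 2, 1 to 2 and 0 with 1 array left out, the second being Klrd1. Of the listed partners it called 3, 4 and 0, with 2 to 4, 2 to 6 and 0 when 1 array was left out.

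Quantile normalization, with and without the block, turned Klrc1 to 0.04 in TCRgd CD8aa and 0.18 in TCRab CD8aa against TCRab CD8ab and to −0.14 between the CD8aa subsets, and Klrg1 between the CD8aa subsets to −0.01. A floor at the 30th percentile turned Klrk1 in TCRgd CD8aa against TCRab CD8ab to −0.16. The other changes of sign came from leaving out 1 array. In TCRgd CD8aa against TCRab CD8aa, the log2 difference then ranged from −1.47 to 0.05 for Klrb1a, −1.13 to 0.33 for Klrb1b, −0.14 to 0.58 for Klrd1, −0.58 to 0.59 for Klrc1, −0.28 to 0.73 for Klrg1, −1.49 to 0.30 for Tyrobp, −0.72 to 0.93 for Fcer1g, −0.10 to 2.36 for Cd247, −0.64 to 0.30 for Txk and −0.44 to 0.03 for Cdh1. In TCRgd CD8aa against TCRab CD8ab, it ranged from −0.43 to 1.03 for Klrb1b, −0.64 to 0.53 for Klrc1, −1.18 to 1.77 for Klrk1, −1.38 to 0.30 for Klrg1, −2.05 to 0.40 for Cd247 and −0.44 to 0.24 for Cdh1. In TCRab CD8aa against TCRab CD8ab, it ranged from −0.41 to 0.29 for Klrc1, −1.60 to 0.08 for Klrg1 and −0.23 to 0.44 for Cdh1. With the block alone, Klrb1b in TCRgd CD8aa stayed at −0.55 to −0.25 against TCRab CD8aa and at 0.15 to 0.46 against TCRab CD8ab. Cd247 stayed at 0.59 to 1.68 and at −1.37 to −0.28 in these comparisons, so both genes turned only without the block. Klrb1a in TCRgd CD8aa against TCRab CD8aa and Klrg1 in TCRab CD8aa against TCRab CD8ab turned only with it. The causes of the changes of sign were not tested. A subset left with 1 array is assumed to vary like the others, and fits with fewer arrays leave fewer residual degrees of freedom. With a filter at the 60th percentile Klrc1, Klrk1 and Klrg1 were not tested. Klrc1, Klrk1 and Klrg1 lie close to the filter's signal, which limits what these arrays can show for them.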
